A study of Mus musculus with 33 samples.

Results

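*Esd*, *Itm2b*, *Med4*, *Mtrf1*, *Ngdn*, *Parp2*, *Sucla2*, *Wbp4* and *Xpo7* are 9 protein-coding genes of mouse chromosome 14, out of 16336 genes in the table of RNA levels. They were selected on their values on day 0, where they are the chromosome 14 genes that the rule given below called lower in both mutant clones. All 9 have a row in the table. Their day 0 values are therefore given as a description with no test, and the tests use the 24 libraries of days 4, 6 and 8, which did not enter the choice.

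The wild-type line was E14Tg2a, an embryonic stem cell line of strain 129/Ola. The clones dK9.1 and dK9.2 derive from E14Tg2a and carry, per the study's methods, a homozygous CRISPR deletion of the H3K9me3-marked region between an upstream enhancer and the promoter of *Nanog*, on another chromosome than the 9 genes. Each is 1 clone, and the methods describe both as independent and karyotypically normal. Undifferentiated cells (day 0) grew on gelatine in serum with LIF, and the other samples came from embryoid body differentiation in serum without LIF, as aggregates in suspension on day 4 and, per the study's methods, as outgrowths of aggregates replated on gelatine on days 6 and 8. There are 33 libraries, 3 per line and day except day 6 with 2, and the values are TPM (transcript abundances), which are scaled for transcript length and library total.

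An autosomal gene of a diploid cell is normally transcribed from both homologous copies, and the RNA level of many genes follows the number of copies unless feedback corrects it. Losing 1 of 2 copies would give a ratio of 1:2 if the level followed the copies, and losing 1 of 3 would give 2:3. These ratios serve here as reference marks. Copy number was not measured in these data, and its part in the ratios was not tested.

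The 9 genes have unrelated products. *Parp2* encodes a poly(ADP-ribose) polymerase switched on by DNA breaks, *Ngdn* a nucleolar factor of small ribosomal subunit assembly, *Med4* a subunit of Mediator, the complex that links transcription factors to RNA polymerase II, and *Wbp4* a splicing factor. *Xpo7* encodes a nuclear transport receptor, *Sucla2* a subunit of a tricarboxylic acid cycle enzyme, *Mtrf1* a mitochondrial translation release factor, *Esd* an enzyme of formaldehyde detoxification, and *Itm2b* a membrane protein of the BRI family. In the order of the chromosome they are *Parp2* (chr14:50807841-50821301, plus strand), *Ngdn* (chr14:55015454-55024137, plus), *Xpo7* (chr14:70654246-70766628, minus), *Itm2b* (chr14:73362226-73385289, minus), *Med4* (chr14:73510025-73518849, plus), *Sucla2* (chr14:73525319-73596142, plus), *Esd* (chr14:74732297-74750765, plus), *Mtrf1* (chr14:79397772-79423587, plus) and *Wbp4* (chr14:79459937-79481520, minus), on mm10 with GENCODE M21. They span 28.7 Mb, with 125 kb between *Itm2b* and *Med4*, 6.47 kb between *Med4* and *Sucla2*, and 36.4 kb between *Mtrf1* and *Wbp4*. The RefSeq table used for the promoters puts the start of *Sucla2* just after chr14:73552785, inside its GENCODE span, so the 6.47 kb holds for GENCODE only.

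The promoters of the 9 genes vary in base composition and motifs, and the 4 shown here range from rich in G and C to poor. They are the 250 bases before the start in the RefSeq table for GRCm38.p6, which matched 8 of the 9 genes, written along the strand of the gene, at chr14:73385290-73385539 (*Itm2b*, minus), chr14:74732047-74732296 (*Esd*, plus), chr14:55015204-55015453 (*Ngdn*, plus) and chr14:79397522-79397771 (*Mtrf1*, plus). Capitals mark the GC box GGGCGG, the CCAAT box, the TATA motif TATAAA and the ETS-type motif CCGGAAG, each searched on both strands.
Itm2b: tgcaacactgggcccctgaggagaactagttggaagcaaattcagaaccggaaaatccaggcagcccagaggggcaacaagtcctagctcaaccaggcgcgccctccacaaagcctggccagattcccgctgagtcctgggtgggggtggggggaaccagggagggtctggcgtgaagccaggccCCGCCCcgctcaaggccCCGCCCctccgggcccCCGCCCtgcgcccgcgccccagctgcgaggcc
Esd: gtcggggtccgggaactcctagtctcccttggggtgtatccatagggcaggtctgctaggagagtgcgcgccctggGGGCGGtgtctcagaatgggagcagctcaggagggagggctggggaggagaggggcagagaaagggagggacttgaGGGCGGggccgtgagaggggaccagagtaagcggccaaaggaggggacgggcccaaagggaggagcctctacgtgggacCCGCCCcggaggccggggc
Ngdn: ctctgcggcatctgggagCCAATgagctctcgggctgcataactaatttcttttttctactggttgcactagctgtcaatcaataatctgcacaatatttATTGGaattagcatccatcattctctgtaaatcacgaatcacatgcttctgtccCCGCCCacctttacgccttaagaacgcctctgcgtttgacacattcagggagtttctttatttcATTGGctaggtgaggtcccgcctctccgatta
Mtrf1: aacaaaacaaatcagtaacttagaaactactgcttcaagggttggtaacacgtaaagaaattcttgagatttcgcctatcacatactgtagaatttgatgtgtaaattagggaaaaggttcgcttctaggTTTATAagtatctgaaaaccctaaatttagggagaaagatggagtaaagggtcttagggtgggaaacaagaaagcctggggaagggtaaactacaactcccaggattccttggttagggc

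GGGCGG is in 7 of the 8 member promoters and in 60.6% of the promoters of genes averaging 5 TPM or more over days 4, 6 and 8 (32.7% of all promoters). CCAAT is in 2 of the 8 (36.5% of promoters of genes at that level), TATAAA in 1 (5.91%) and CCGGAAG in 1 (14.9%). In the 8 member promoters the share of G and C runs from 39.2% in *Mtrf1* to 76.4% in *Wbp4*, and the number of CpG from 3 to 34. The medians over all promoters of genes averaging 5 TPM or more are 60.4% and 16.0. A match or its absence describes these letters only.

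On day 0 the 9 genes were at 0.430 to 0.595 of the E14Tg2a level, with a median ratio of 0.497 in dK9.1 and 0.544 in dK9.2. The rule chose 11 genes of 14504, and the other two, *Gm12112* and *Gm26448*, are not on chromosome 14. Just inside the rule's limit on the adjusted p were *Itm2b*, at ratios of 0.536 in dK9.1 and 0.577 in dK9.2, and *Mtrf1*, at 0.489 and 0.517. Just outside that limit were the chromosome 14 genes *Gtf2f2*, *Psme1* and *Psme2*, at ratios of 0.606, 0.603 and 0.365 in dK9.1 and 0.580, 0.568 and 0.468 in dK9.2. The ratios of *Psme2* were thus under those of all 9 members in both clones.

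**Figure D1:**
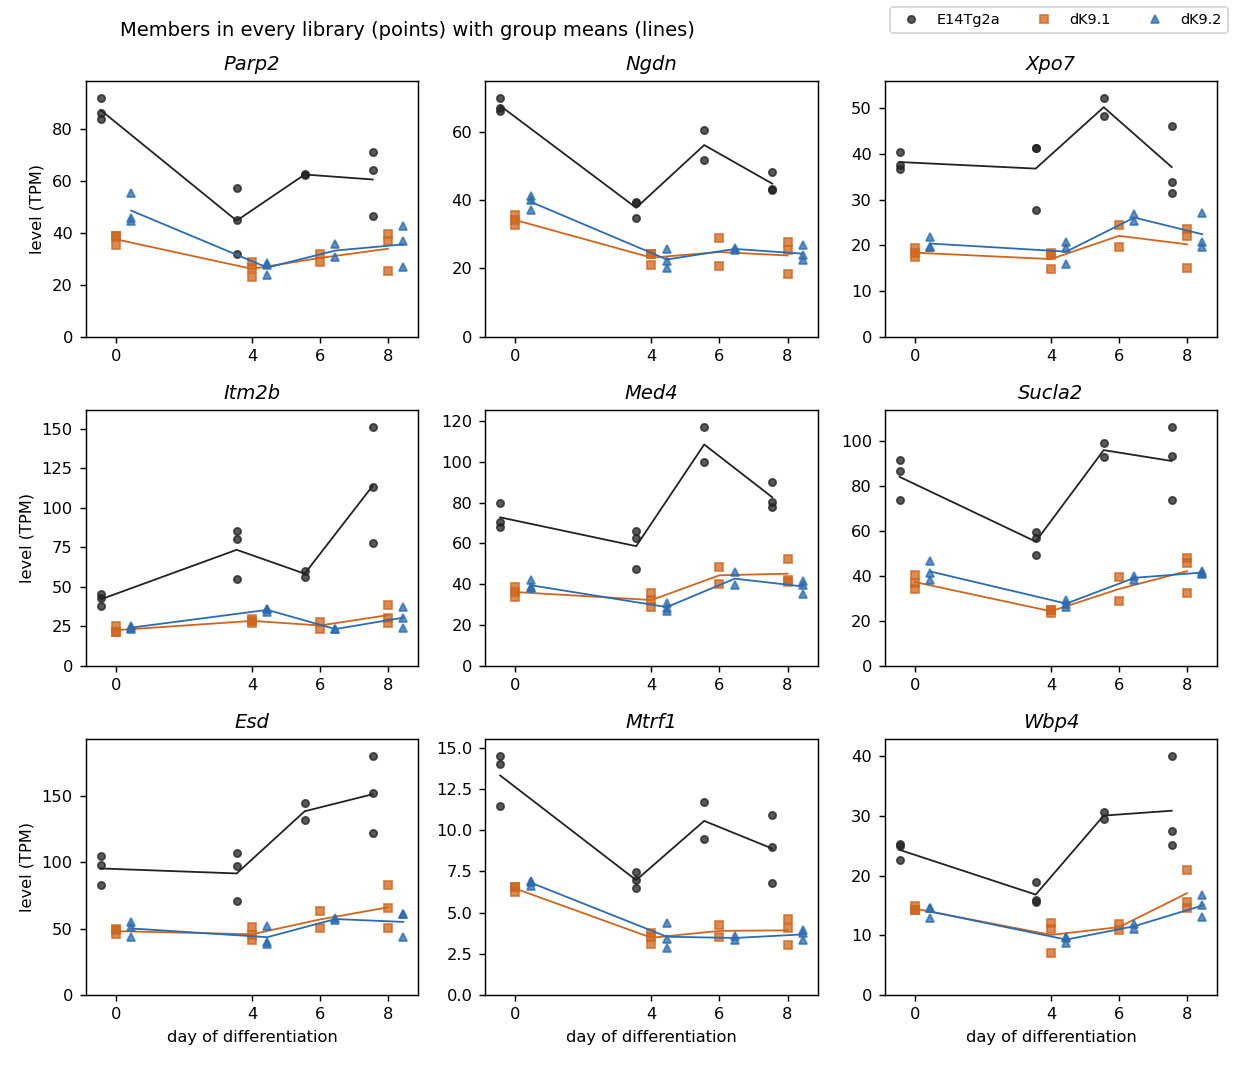
Level in TPM (vertical axes from 0) of each of the 9 genes in all 33 libraries against the day of differentiation, with circles for E14Tg2a, squares for dK9.1, triangles for dK9.2 and lines through the group means. On every day the libraries of both clones lie below all E14Tg2a libraries for all 9 genes.

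During differentiation all 9 genes were lower in both clones, at about 1:2 of the wild-type level. Averaged over days 4, 6 and 8, 9 of 9 passed the test in dK9.1 and 9 of 9 in dK9.2, with log2 differences from -0.85 to -1.42 and from -0.78 to -1.38. Among all 15735 genes tested, 10.1% were called lower in dK9.1 and 9.16% in dK9.2. A gene was called lower at an adjusted p under 0.05, from limma with Benjamini-Hochberg adjustment over all genes tested, and a log2 difference under -0.3, both on log2(TPM + 1). The median ratio of the 9 genes was 0.481 in dK9.1 and 0.456 in dK9.2, against 0.966 and 0.965 over all genes tested. Both clones are compared with the same E14Tg2a libraries, so the 2 results are not independent. These are bulk samples, in which fewer cells with a transcript and less of it per cell cannot be told apart.

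The libraries did not overlap. On day 4 the 6 clone libraries were below the 3 E14Tg2a libraries for 9 of 9 genes, a pattern shown by 6.13% of all genes. The 4 clone libraries of day 6 were below both E14Tg2a libraries for 9 of 9 (20.1% of all genes), and the 6 of day 8 for 9 of 9 (8.23%).

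Markers of the state of the cells also differed between the lines. *Nanog*, whose upstream region was deleted while its coding part was left, was at 326 to 368 TPM in E14Tg2a on day 0, 456 to 486 TPM in dK9.1 and 412 to 439 TPM in dK9.2, and on day 8 at 22.0 to 34.6, 49.3 to 177 and 69.9 to 126 TPM. The summed level of 10 pluripotency markers was 182 to 343 TPM in E14Tg2a on day 8, 387 to 939 TPM in dK9.1 and 447 to 1016 TPM in dK9.2, while on day 4 it was 1848 to 2259, 2056 to 2221 and 1878 to 2192 TPM. The 16 markers of extra-embryonic endoderm summed to 453 to 624 TPM in E14Tg2a on day 8, against 52.9 to 193 TPM in dK9.1 and 82.3 to 104 TPM in dK9.2, and on day 4 to 132 to 1026, 7.68 to 52.5 and 30.4 to 281 TPM. Among the 16, *Gata4* itself lies on chromosome 14 between the first and last of the 9 genes, 12.4 Mb after *Parp2*. None of these markers was at 0 in all libraries of a group on days 4, 6 and 8. Their part in the differences of the 9 genes was not tested.

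*Itm2b* had the lowest ratio of the 9 genes over the mean of the 3 days in both clones. Its product is cut by furin-like proteases, by ADAM10, which sheds the outer domain, and within the membrane by signal peptide peptidase-like enzymes. In E14Tg2a its level was 85.1, 54.7 and 80.3 TPM on day 4, 56.3 and 60.2 TPM on day 6, and 77.7, 151 and 113 TPM on day 8. In dK9.1 it was 29.7, 28.3 and 27.1 TPM, then 23.5 and 27.4 TPM, then 26.9, 38.7 and 30.4 TPM. In dK9.2 it was 35.9, 33.9 and 36.2 TPM, then 23.0 and 23.4 TPM, then 23.8, 30.3 and 37.1 TPM. The highest clone library of these days was thus below the lowest wild-type one. The ratio over the 3 days was 0.368 in dK9.1 (95% interval 0.305 to 0.443, log2 difference -1.42 ± 0.13 (SE), adjusted p = 1.82e-06 from limma) and 0.377 in dK9.2 (0.313 to 0.454, -1.38 ± 0.13 (SE), adjusted p = 3.22e-06 from limma), both intervals lying below 1:2. On days 4, 6 and 8 the ratio was 0.394, 0.437 and 0.288 in dK9.1 and 0.491, 0.400 and 0.273 in dK9.2. It was not the lowest of the 9 on day 6 in either clone, where *Sucla2* was at 0.353 in dK9.1 and *Mtrf1* at 0.335 in dK9.2, nor on day 4 in dK9.2, where *Esd* was at 0.479, and these intervals overlapped that of *Itm2b*.

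*Sucla2* encodes the ADP-dependent beta subunit of succinyl-CoA ligase. In E14Tg2a its level was 49.4, 56.8 and 59.3 TPM on day 4, 99.0 and 92.6 TPM on day 6, and 73.6, 106 and 93.3 TPM on day 8. In dK9.1 the values were 23.2, 24.7 and 24.7 TPM, then 39.3 and 28.9 TPM, then 47.7, 45.8 and 32.5 TPM. In dK9.2 they were 27.3, 29.4 and 26.1 TPM, then 38.3 and 39.8 TPM, then 40.6, 41.3 and 42.3 TPM. Every day 6 library was above the day 4 libraries of its own line, and the clone libraries were below the wild-type ones on each day. The ratio was 0.415 in dK9.1 (0.364 to 0.474, log2 difference -1.24 ± 0.09 (SE), adjusted p = 2.99e-07 from limma) and 0.456 in dK9.2 (0.399 to 0.520, -1.11 ± 0.09 (SE), adjusted p = 1.00e-06 from limma), and only the dK9.1 interval excluded 1:2.

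*Med4*, the neighbour of *Sucla2*, encodes a subunit of the middle module of Mediator. The E14Tg2a libraries were at 47.3, 62.7 and 65.9 TPM on day 4, 117 and 100 TPM on day 6, and 77.7, 90.0 and 80.2 TPM on day 8. Those of dK9.1 were at 28.8, 35.8 and 32.0 TPM, then 48.6 and 40.1 TPM, then 41.8, 52.5 and 41.1 TPM. Those of dK9.2 were at 26.9, 28.4 and 30.9 TPM, then 45.8 and 39.6 TPM, then 39.5, 41.7 and 35.4 TPM. Each clone library was below every wild-type library of its own day, while the highest dK9.1 libraries of days 6 and 8 were above the lowest wild-type library of day 4. The ratio was 0.498 in dK9.1 (0.440 to 0.564, log2 difference -0.99 ± 0.08 (SE), adjusted p = 1.76e-06 from limma) and 0.452 in dK9.2 (0.399 to 0.512, -1.13 ± 0.08 (SE), adjusted p = 5.73e-07 from limma), both including 1:2.

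*Esd* had the highest TPM, a level per transcript length, of the 9 genes in E14Tg2a on each day. It encodes the hydrolase of S-formylglutathione, the step after the enzyme Adh5 in formaldehyde breakdown. The day 4 mean in E14Tg2a was 91.6 ± 18.9 TPM (SD, n = 3) and that of day 8 was 151 ± 29.2 TPM (SD, n = 3). The same means were 45.7 ± 4.96 TPM (SD, n = 3) and 66.0 ± 16.2 TPM (SD, n = 3) in dK9.1, and 43.5 ± 7.11 TPM (SD, n = 3) and 55.0 ± 9.90 TPM (SD, n = 3) in dK9.2. The ratio was 0.448 in dK9.1 (0.375 to 0.534, adjusted p = 8.10e-06 from limma) and 0.417 in dK9.2 (0.349 to 0.497, adjusted p = 4.38e-06 from limma), the latter interval lying just below 1:2.

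*Mtrf1* and *Wbp4*, neighbours at the far end of the group, differ in level. *Mtrf1* was the least abundant of the 9, at 6.97 ± 0.501 TPM (SD, n = 3) in E14Tg2a on day 4, and at 8.89 ± 2.06 TPM (SD, n = 3) there on day 8. Its clone libraries lay between 2.84 and 4.62 TPM on days 4 to 8, below the lowest wild-type library of 6.47 TPM. Its ratio was 0.439 in dK9.1 (0.364 to 0.529, adjusted p = 9.07e-06 from limma) and 0.417 in dK9.2 (0.346 to 0.502, adjusted p = 6.87e-06 from limma). For *Wbp4* the wild-type libraries were at 15.6, 15.9 and 18.9 TPM on day 4, 30.6 and 29.5 TPM on day 6, and 25.1, 40.0 and 27.5 TPM on day 8. The dK9.1 libraries were at 11.1, 12.0 and 7.02 TPM, 11.9 and 10.8 TPM, and 15.6, 20.9 and 14.6 TPM, and those of dK9.2 at 8.62, 9.70 and 9.44 TPM, 11.1 and 11.9 TPM, and 13.0, 16.8 and 15.1 TPM. Each clone library lay below every wild-type library of its day. The ratio was 0.499 in dK9.1 (0.418 to 0.595, adjusted p = 3.30e-05 from limma) and 0.473 in dK9.2 (0.396 to 0.565, adjusted p = 2.06e-05 from limma).

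*Parp2*, *Ngdn* and *Xpo7*, the 3 genes nearest the low-numbered end, had the highest ratios in dK9.2. *Parp2* was at 32.0, 57.2 and 44.8 TPM in E14Tg2a on day 4, a wide spread, against 28.8, 26.5 and 23.0 TPM in dK9.1 and 28.2, 27.7 and 23.9 TPM in dK9.2. On day 8 it was at 46.4, 71.1 and 64.1 TPM, against 36.7, 39.6 and 25.3 TPM and 36.9, 42.7 and 27.0 TPM. The clone libraries were below the wild-type ones on both days, by the smallest margin beside the lowest wild-type library of day 4. Its ratio was 0.546 in dK9.1 (0.451 to 0.661, adjusted p = 0.000222 from limma) and 0.575 in dK9.2 (0.475 to 0.696, adjusted p = 0.000747 from limma). *Ngdn* had ratios of 0.520 (0.454 to 0.596, adjusted p = 5.39e-06 from limma) and 0.530 (0.463 to 0.608, adjusted p = 7.41e-06 from limma). *Xpo7* had ratios of 0.481 (0.403 to 0.575, adjusted p = 2.20e-05 from limma) and 0.546 (0.456 to 0.652, adjusted p = 0.000170 from limma).

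**Figure D2:**
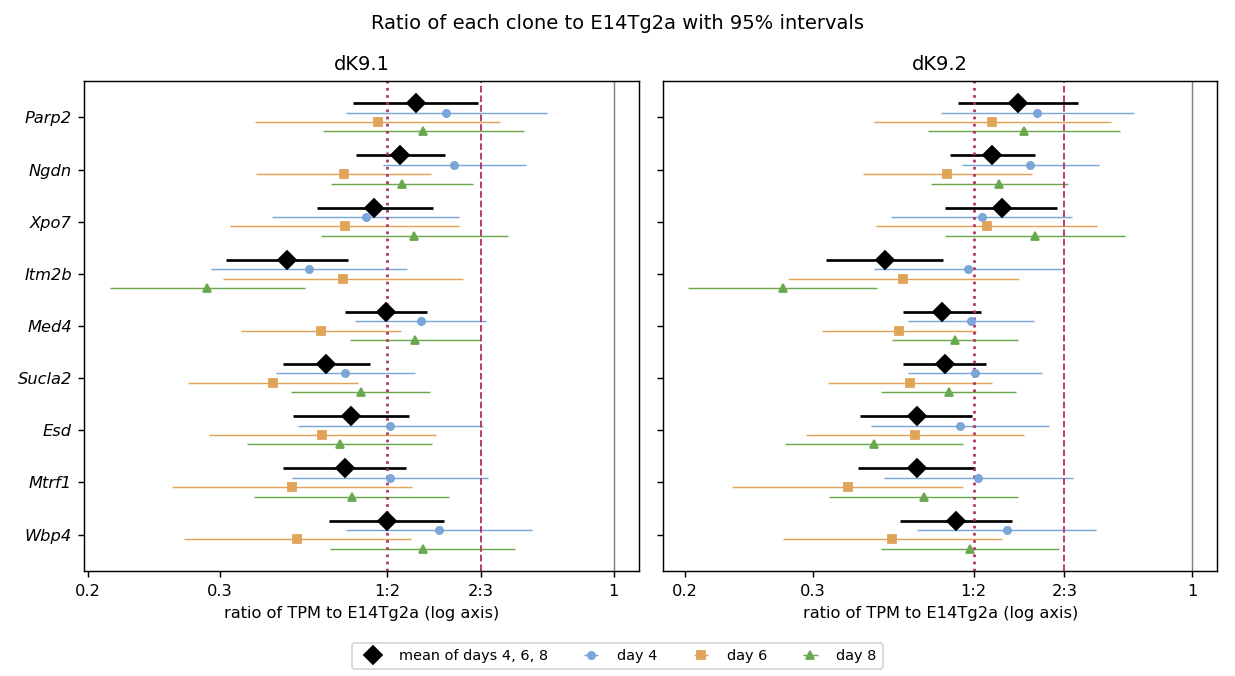
Ratio of the TPM level in dK9.1 (left) and dK9.2 (right) to E14Tg2a on a log axis for the 9 genes in chromosome order, with black diamonds for the mean of days 4, 6 and 8, coloured points for single days and bars for 95% intervals from the fit on log2(TPM + 0.1). Dotted and dashed lines mark 1:2 and 2:3. The means lie between 0.368 and 0.575, and no interval reaches 1.

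Set against the reference marks, the ratios over the 3 days were nearer to 1:2 than to 2:3. Of the 18 intervals, 14 held 1:2 and 4 lay below it, those of *Itm2b* in both clones, *Sucla2* in dK9.1 and *Esd* in dK9.2. Only 1 held 2:3, that of *Parp2* in dK9.2, and it held 1:2 as well. Single days were less precise: of 54 intervals, 49 held 1:2, 20 held 2:3 and 5 lay below 1:2. None reached 1. Over the alternative settings 12 to 15 of the 18 held 1:2, 0 to 3 held 2:3 and 3 to 6 lay below 1:2. In chromosome order the intervals of neighbouring members overlapped, apart from *Xpo7* and *Itm2b* in dK9.2 (0.456 to 0.652 and 0.313 to 0.454). The members were chosen for low day 0 values in the same clones, so their nearness to 1:2 does not stand for the genes around them. Between the first and last member, the 139 other genes averaging 5 TPM or more had median ratios of 0.578 in dK9.1 and 0.589 in dK9.2.

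Day by day, the direction was lower for all 9 genes and the number past the test varied. On day 4, 7 of 9 passed in dK9.1 (1.58% of all genes), without *Parp2* (adjusted p = 0.0790 from limma) and *Wbp4* (0.0507). In dK9.2 only *Med4*, *Sucla2* and *Esd* passed, 3 of 9 (0.0699% of all genes), although the median ratios of the 9 were alike at 0.505 and 0.507. On day 6, 9 of 9 passed in dK9.1 (1.07%) and 7 of 9 in dK9.2 (0.667%), without *Parp2* (0.120) and *Xpo7* (0.0742), at median ratios of 0.410 and 0.408. On day 8, 9 of 9 passed in dK9.1 (5.06%) and 9 of 9 in dK9.2 (9.60%), at 0.524 and 0.471.

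These daily counts rest on few libraries and on the spread shared across groups. With only the libraries of the 2 groups compared in the fit, 0, 0 and 1 of 9 passed limma's test in dK9.1 on days 4, 6 and 8 and 0, 9 and 7 in dK9.2, with 9 of 9 at an unadjusted p under 0.05 each time (16.9%, 16.1% and 16.4% of all genes in dK9.1 and 9.42%, 23.3% and 23.5% in dK9.2). With all 33 libraries in the fit, the day 4 count in dK9.2 was 8 of 9 in place of 3. This fit takes part of its spread from the day 0 libraries that chose the members, so that 8 is no independent support. With the replicate number as a block in the fit of days 4, 6 and 8, the day 4 count in dK9.2 was also 8 of 9, beside 68 of all 15735 genes. The labels do not say that a number marks an assay. The day 4 count in dK9.1 became 1 without E14Tg2a replicate 3 or dK9.1 replicate 3 of that day and 4 without dK9.1 replicate 2. In dK9.2 it became 0 without E14Tg2a replicate 3 or dK9.2 replicate 1 of day 4, and 5 without E14Tg2a replicate 1 of day 4, E14Tg2a replicate 1 of day 8 or dK9.1 replicate 3 of day 8. The day 6 count in dK9.1 became 2 without E14Tg2a replicate 2 or dK9.1 replicate 3 and 5 without E14Tg2a replicate 3, and in dK9.2 it became 1 without E14Tg2a replicate 2, 4 without E14Tg2a replicate 3, and 2 without either dK9.2 library. The counts over the mean of the 3 days stayed at 9 of 9 in both clones under every alternative run.

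Whether the deficit changed during differentiation was tested as the difference between day 8 and day 4. It passed an adjusted p of 0.05 for 0 of 9 genes in dK9.1 (0.00636% of all genes) and 0 of 9 in dK9.2 (0.0191%) in limma, and an unadjusted p under 0.05 for 0 and 1 (10.9% and 13.7% of all genes), shares of the members no larger than that of all genes. That 1 was *Itm2b* in dK9.2, whose log2 difference moved by -0.84 ± 0.29 (SE) from day 4 to day 8 (95% interval -1.44 to -0.23, adjusted p = 0.209 from limma). Without E14Tg2a replicate 1 of day 8 it was -1.08 ± 0.26 (SE) and its adjusted p was 0.0383 from limma, the count in dK9.2 then being 1. Over all alternatives its adjusted p ran from 0.0383 to 0.533. For the other members the intervals of the change included 0 in both clones, for *Med4* from -0.43 to 0.37 in dK9.1 and from -0.48 to 0.32 in dK9.2.

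The 2 clones, compared with each other in the same fit, where the wild-type libraries enter only the estimate of the spread, differed for 0 of 9 genes over the mean of the 3 days in limma (0.0763% of all genes), with 0 at an unadjusted p under 0.05 (8.72% of all genes). The largest difference was in *Xpo7*, dK9.1 minus dK9.2 being -0.17 on the log2 scale (95% interval -0.42 to 0.08, adjusted p = 0.739 from limma), and for *Itm2b* it was -0.03 (-0.30 to 0.23, adjusted p = 0.967 from limma). These intervals bound the difference and do not show that the clones were alike.

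Within each line the 9 genes moved modestly over time. Between day 4 and day 8 none passed the threshold in limma, a log2 difference beyond 1 in either direction at an adjusted p under 0.05, in E14Tg2a (20.4% of all genes), dK9.1 (18.6%) or dK9.2 (17.0%), and 6, 4 and 3 of 9 had an unadjusted p under 0.05 (54.8%, 54.9% and 51.3% of all genes). At the adjusted p alone, *Itm2b*, *Med4*, *Sucla2*, *Esd* and *Wbp4* were higher on day 8 in E14Tg2a, *Med4*, *Sucla2*, *Esd* and *Wbp4* in dK9.1, and *Med4*, *Sucla2* and *Wbp4* in dK9.2. These 5, 4 and 3 of 9 stand beside 48.7%, 48.5% and 43.5% of all genes that passed the adjusted p in either direction, and are no result about the members. *Wbp4* was higher by 0.82 ± 0.18 (SE), 0.73 ± 0.18 (SE) and 0.63 ± 0.18 (SE) in E14Tg2a, dK9.1 and dK9.2. *Itm2b* was higher by 0.60 ± 0.20 (SE) in E14Tg2a, with values of 0.15 ± 0.20 (SE) in dK9.1 and -0.23 ± 0.20 (SE) in dK9.2.

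The stretch of chromosome 14 between the first and last of the 9 genes was lower as a whole. With the 9 left out, 183 of 235 genes tested there were called lower in dK9.1 (77.9%), 180 in dK9.2 (76.6%) and 169 in both. On the rest of chromosome 14 it was 66 of 305 in dK9.1 (21.6%) and 42 in dK9.2 (13.8%), and on other chromosomes 8.78% and 8.00% of 14946 genes. Among genes averaging 5 TPM or more, the median ratio in the stretch was 0.578 in dK9.1 and 0.589 in dK9.2 over 139 genes, above the 0.481 and 0.456 of the 9 members, against 0.868 and 0.882 on the rest of the chromosome and 0.977 and 0.975 elsewhere. Since the 9 were chosen for their day 0 values, a lower median than that of their surroundings is no separate result.

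The depth of the deficit varied along the chromosome. In windows of 10 Mb the median ratio was 0.867 in dK9.1 and 0.861 in dK9.2 from 40 to 50 Mb, 0.604 and 0.615 from 50 to 60 Mb, where *Parp2* and *Ngdn* lie, 0.544 and 0.566 from 60 to 70 Mb, and 0.503 and 0.510 from 70 to 80 Mb, where the other 7 members lie. These medians include the members, which are 2 of the 77 genes from 50 to 60 Mb and 7 of the 36 from 70 to 80 Mb. Since the members were chosen for low values, the lower median from 70 to 80 Mb than from 60 to 70 Mb is no separate result. The other windows ran from 0.721 to 0.911 in dK9.1 and from 0.737 to 0.930 in dK9.2. The lowest of them in dK9.1 were 0 to 10 Mb, with 15 genes at 0.721 and 0.861, 110 to 120 Mb, with 7 genes at 0.760 and 0.737, and 80 to 90 Mb, with 3 genes at 0.779 and 0.803. Of 245 windows of the genome with at least 10 genes, these 3 from 50 to 80 Mb and 1 on chromosome 1, at 0.800 and 0.751, had a median log2 ratio under -0.3 in both clones. Windows of at least 10 genes on the other chromosomes ranged from 0.768 to 1.24 in dK9.1 and from 0.751 to 1.19 in dK9.2.

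**Figure D3:**
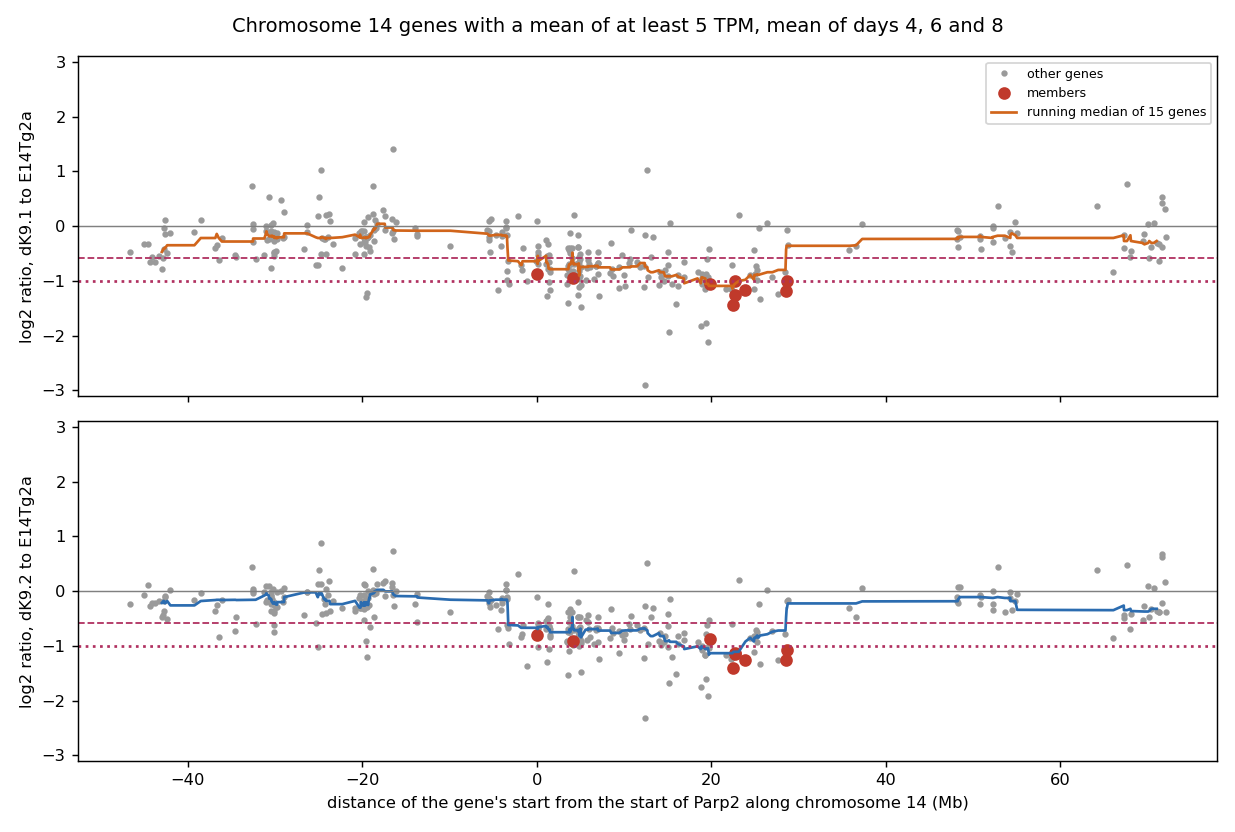
Log2 ratio of each clone to E14Tg2a over days 4, 6 and 8 for chromosome 14 genes averaging 5 TPM or more, against the distance of the gene's start from that of *Parp2* in Mb, with the 9 members in red, other genes in grey and a line for the running median of 15 genes. Dashed and dotted lines mark 2:3 and 1:2. The running median, which includes the members, drops just before *Parp2*, is lowest around *Xpo7* to *Esd*, and returns towards 0 after *Wbp4* in both clones.

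The median ratio of the stretch was under that of other chromosomes on each day, while the number of its genes past the test varied. Of its 139 genes averaging 5 TPM or more, 136, 132 and 134 had a ratio under 1 on days 4, 6 and 8 in dK9.1, at medians of 0.618, 0.526 and 0.610, and 135, 137 and 134 in dK9.2, at 0.648, 0.529 and 0.565. The medians on other chromosomes were 0.935, 0.984 and 1.02 in dK9.1 and 0.955, 0.985 and 0.980 in dK9.2. Called lower were 48, 59 and 77 of the 139 in dK9.1, and 4, 45 and 91 in dK9.2. The members' medians on those days were 0.505, 0.410 and 0.524 in dK9.1 and 0.507, 0.408 and 0.471 in dK9.2. In both clones the stretch and the members had their lowest medians on day 6.

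Next to the members, 7 of the 11 nearest genes averaging 5 TPM or more that are not members were called lower in both clones. *Fndc3a* beside *Xpo7* was at 0.453 in dK9.1 and 0.444 in dK9.2, *Lpar6* beside *Itm2b* at 0.443 and 0.429, *Osgep* beside *Parp2* at 0.537 and 0.629, *Efs* and *Ap1g2* on either side of *Ngdn* at 0.569 and 0.518 and at 0.617 and 0.613, *Zc3h13* beside *Esd* at 0.539 and 0.553, and *Naa16* beside *Mtrf1* at 0.557 and 0.580. *Dmtn* on the other side of *Xpo7* passed in dK9.2 (0.697, adjusted p = 0.0250 from limma) and not in dK9.1 (0.748, adjusted p = 0.0533 from limma). The pseudogene *Cbx3-ps6*, whose reads may be shared with copies of its parent gene, was at 1.15 (0.721 to 1.84) and 1.16 (0.724 to 1.84).

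*Parp2* and *Wbp4* each have a head-to-head neighbour that did not pass. *Ccnb1ip1*, whose start lies 109 bases before that of *Parp2* and which runs the other way, was at a ratio of 1.06 in dK9.1 (0.802 to 1.41, adjusted p = 0.780 from limma) and 0.925 in dK9.2 (0.696 to 1.23, adjusted p = 0.760 from limma). *Elf1*, which encodes an ETS transcription factor, starts on the opposite strand inside the annotated start of *Wbp4*, with an overlap of 327 bases. Its ratio was 0.955 in dK9.1 (0.779 to 1.17, adjusted p = 0.784 from limma) and 0.879 in dK9.2 (0.717 to 1.08, adjusted p = 0.418 from limma), intervals that lie above those of *Wbp4*, 0.418 to 0.595 and 0.396 to 0.565. On day 6 *Elf1* was at 8.55 and 7.62 TPM in E14Tg2a, 7.16 and 9.36 TPM in dK9.1 and 7.70 and 6.98 TPM in dK9.2, where the lines overlapped, as they did on days 4 and 8. On day 0 they did not overlap, and *Elf1* was higher in the clones, at 8.65, 7.14 and 7.38 TPM in E14Tg2a, 11.6, 13.7 and 10.7 TPM in dK9.1 and 9.35, 10.6 and 10.4 TPM in dK9.2. The libraries are strand-specific and were quantified by strand, which separates the reads of *Elf1* and *Wbp4*.

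Beyond *Elf1* the next genes, *Sugt1* and *Diaph3*, had ratios above that of *Wbp4* and below 1. They were at 0.784 (0.669 to 0.919) and 0.743 (0.649 to 0.852) in dK9.1, where both were called lower, and at 0.894 (0.762 to 1.05) and 0.803 (0.700 to 0.920) in dK9.2, where neither was. At the other end, a place chosen after its values were seen, *Dlgap5* was at 0.889 and 0.926 and the next gene, *Fbxo34*, 32.0 kb on and 3.36 Mb before *Parp2*, at 0.570 (0.482 to 0.673) and 0.647 (0.548 to 0.765). *Atg14* and *Ktn1* followed at 0.647 and 0.480 in dK9.1 and 0.628 and 0.513 in dK9.2. Exceptions on both sides were *Lgals3*, before *Dlgap5*, at 0.504 in dK9.1 and 0.905 in dK9.2, and *Otx2*, after *Ktn1*, at 1.13 and 1.24.

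**Figure D4:**
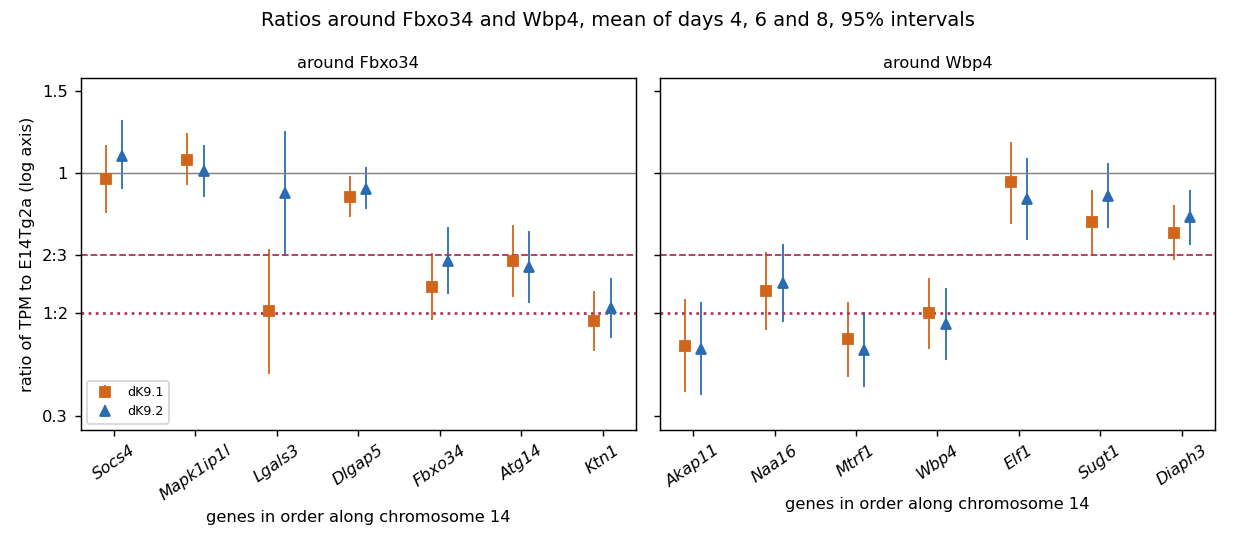
Ratio of dK9.1 (squares) and dK9.2 (triangles) to E14Tg2a on a log axis, mean of days 4, 6 and 8 with 95% intervals, for consecutive chromosome 14 genes averaging 5 TPM or more around *Fbxo34* (left) and *Wbp4* (right). Ratios step from 0.889 and 0.926 in *Dlgap5* to 0.570 and 0.647 in *Fbxo34*, and from 0.499 and 0.473 in *Wbp4* to 0.955 and 0.879 in *Elf1*.

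The genes most like the members over the 24 libraries of days 4, 6 and 8 lay on the same chromosome. Likeness was Pearson's r of a gene's log2(TPM + 1), after subtracting the mean of each day over all lines, with the mean of the 9 members, and the points share lines, days and the wild-type libraries. Each member had an r of 0.91 to 0.98 with the mean of the other 8. The 10 genes most alike, with an r of 0.97 to 0.99, were *Gpalpp1*, *Chmp7*, *Cog3*, *Gm49336*, *Gmpr2*, *Elp3*, *Ccar2*, *Dad1*, *Extl3* and *Ktn1*, all on chromosome 14, as were 44 of the first 50, against 3.30% of the 10266 genes compared. The median r over all genes was 0.12. On day 4, 6 or 8 alone, 26, 37 and 24 of the first 50 were on chromosome 14.

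Genes that work with the members' products were called about as often as genes in general. Of 131 partner genes tested in 9 lists, 9 were called lower and 7 higher in dK9.1, and 9 lower and 2 higher in dK9.2, with a median ratio of 1.02 in each. Over all 15735 genes tested, 1584 were lower (10.1%) and 788 higher in dK9.1, and 1441 (9.16%) and 360 in dK9.2, so the counts are no result about the partners.

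For *Med4*, 0 of 29 other Mediator subunits were called lower in either clone and 2 were higher in dK9.1, *Med7* (ratio 1.25) and *Med18* (1.48), with a list median of 1.01 and 0.994. Of 15 spliceosomal proteins beside *Wbp4*, 0 were called in either direction, with a median of 1.03 and 1.01. Among 26 small-subunit processome factors listed with *Ngdn*, *Utp11* was lower in dK9.1 (0.809), and *Utp14a* (1.44 and 1.33) and *Nol6* (log2 differences of 0.37 and 0.33) were higher in both clones, with *Wdr3* higher in dK9.1 (1.28). For *Mtrf1*, 1 of 9 mitochondrial translation factors passed, *Tsfm*, higher in dK9.1 at 1.31, and the related release factor *Mtrf1l* was at 0.828 (0.640 to 1.07) and 0.963 (0.745 to 1.25).

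For *Sucla2*, 2 of 16 tricarboxylic acid cycle enzymes were lower in dK9.1 and 1 in dK9.2. *Fh1*, which encodes fumarase, was lower in both at 0.637 and 0.742, and *Suclg1*, the alpha subunit that pairs with the *Sucla2* product, was lower in dK9.1 at 0.803 (0.704 to 0.917, adjusted p = 0.0226 from limma) and at 0.875 (0.766 to 0.999, adjusted p = 0.172 from limma) in dK9.2. *Suclg2*, the alternative GDP-dependent beta subunit, was at 0.922 (0.824 to 1.03) and 0.899 (0.803 to 1.01). *Parp1*, the main poly(ADP-ribose) polymerase beside *Parp2*, was at 0.927 (0.787 to 1.09) and 0.997 (0.847 to 1.17), and of 7 repair factors *Polb* was lower in both clones at 0.807 and 0.785. *Adh5*, the enzyme upstream of *Esd*, was at 1.04 (0.953 to 1.13, adjusted p = 0.560 from limma) in dK9.1 and did not pass in dK9.2 (log2 difference 0.13, adjusted p = 0.158 from limma), and in its list of 7 only *Gclm* passed, higher in dK9.1 at 1.25. Of 11 exportins and Ran-cycle genes with *Xpo7*, *Xpo4* was lower in both clones at 0.601 and 0.627, and it too lies on chromosome 14. The 1 other partner on chromosome 14, *Parg*, which removes poly(ADP-ribose), did not pass and was at 1.08 (0.965 to 1.22) in dK9.1, with a log2 difference of 0.00 in dK9.2 (ratio interval 0.891 to 1.12).

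Of 11 genes listed with *Itm2b*, for the BRI family, its processing enzymes and the related amyloid precursor, 4 were lower in dK9.1 and 6 in dK9.2, beside 10.1% and 9.16% of all genes, with a median ratio of 0.815 and 0.754, and none lies on chromosome 14. *Itm2c*, a paralogue, was at 0.538 (0.432 to 0.670, adjusted p = 0.000589 from limma) and 0.565 (0.454 to 0.704, adjusted p = 0.00190 from limma). The paralogue *Itm2a* was at 0.613 (0.428 to 0.878, adjusted p = 0.0559 from limma) and 0.576 (0.402 to 0.825, adjusted p = 0.0404 from limma), so it passed in dK9.2. *App*, the amyloid precursor, was at 0.546 and 0.573, *Ncstn*, a gamma-secretase subunit, at 0.635 and 0.668, and *Sppl2a*, an intramembrane protease, at 0.765 and 0.754, all lower in both clones, and *Adam10* was lower in dK9.2 at 0.722.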

How the data were processed

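RNA was sequenced from 3 lines on 4 days as stranded poly-A libraries. The authors used STAR for the alignment of read pairs to mm10 and RSEM for quantification by strand, left out outliers found in a principal component analysis (the methods do not say of what), and deposited TPM per gene and library. Tool versions and the gene annotation are not given in the sources used here. The table also has 22 columns of log2 fold changes and FDR (adjusted p-values) that the authors computed with DESeq2 and deposited, and these were not used. TPM keep no depth, so the depth of each library cannot be read from them (the methods give only an approximate read number for all libraries), and the error comes from replicates. The listed TPM summed to 994284 to 998266 per library.

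The members and all gene lists were chosen with earlier results of these data known. Groups were taken from the labels, which number the libraries; the study's methods describe 3 independent assays in which the lines were differentiated side by side, and the labels do not say which number is which assay, so p-values measure the spread between these libraries.

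Tests used limma 3.58.1 in R 4.3.3 (empirical Bayes with an intensity trend) on log2(TPM + 1), which understates changes of low genes, in the 24 libraries of days 4, 6 and 8, for the 15735 genes that averaged 1 TPM or more in some group, with Benjamini-Hochberg adjustment over all of them. Day 0 values come from its own 9 libraries. Ratios and their 95% intervals come from the same fit on log2(TPM + 0.1). On simulated data for dK9.1 over the mean of days (15735 genes), 189 of 200 genes lowered by 1.0 and 162 of 200 lowered by 0.6 on the log2 scale were called, with 11 of 15335 unchanged genes. The simulated libraries varied independently, while real libraries of the same number deviated together, so these rates may not hold for the real data. Genes were placed by symbol with GENCODE M21 (16078 of 16336, 98.4%). Promoters come from RefSeq (GRCm38.p6). No 2 libraries were identical (highest correlation 0.9878). Genes named are the members, the nearest gene on either side that averaged 5 TPM or more, the 10 genes most like them, partner genes that passed or were listed as direct partners, and *Nanog*. The day 0 genes beside the members, *Gata4*, *Parg* and those around *Fbxo34* and after *Elf1* were chosen after their values were seen. Alternatives were a pseudocount of 0.1 (1 for the ratios), no minimum, a minimum of 5 TPM, median-ratio rescaling, the replicate number as a block, all 33 libraries, only the groups compared, and each library left out. Figures were drawn with Python 3.11.15.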

Additional observations from a re-analysis of the deposited data

How the results depend on the processing

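Over the mean of days 4, 6 and 8, single members kept their direction and their call in 126 of 126 values from 7 other settings and in 432 of 432 values with each of 24 libraries left out, and the counts of chromosome 14 and partner genes, the median ratios and the direct comparison of the clones stayed within the limits of the main values under every alternative. On single days, of 378 values from the 7 settings, none reversed, 34 lost their call and 21 gained one, and of 1296 values with 1 library left out, none reversed, 102 lost their call and 15 gained one.

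The daily counts of members called lower depended on the fit. With only the libraries of the groups compared, 0 of 9 were called in dK9.1 on day 4, 0 on day 6 and 1 on day 8, and 0 in dK9.2 on day 4. With all 33 libraries, which include the day 0 libraries that chose the members, 8 were called in dK9.2 on day 4. Leaving out 1 library at a time gave 1 to 8 on day 4, 2 to 9 on day 6 and 6 to 9 on day 8 in dK9.1, and 0 to 5, 1 to 8 and 7 to 9 in dK9.2. Where this left 1 library in a group, that library was assumed to vary like the others. Without E14Tg2a replicate 1 of day 8, the count of members whose dK9.2 difference changed from day 4 to day 8 was 1, and without any other library 0. The number of chromosome 14 genes among the 50 most like the members was 26 on day 4 alone and 24 on day 8 alone, against 44. Beyond these constructions (fewer libraries, another set of groups), the cause was not tested.

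Libraries of the same number and day deviated together in 22 of 24 pairs of lines at a correlation over 0.1 (median 0.217, lowest -0.0104), against a median of -0.140 for other numbers, and 24 of 24 libraries correlated best with one of their own number. The methods describe parallel differentiation of the lines, but the labels do not say that a number marks an assay, so the link of number to assay is a hint from the data. With a replicate block in the fit, 9, 9 and 9 members were called lower in dK9.1 on days 4, 6 and 8 and 8, 8 and 9 in dK9.2. Of all 15735 genes, 493, 333 and 1113 were called lower in dK9.1 and 68, 193 and 1940 in dK9.2. The day 4 count in dK9.2 was the 1 count of members that moved by over 1.5 times.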
